A study of Drosophila melanogaster with 6 samples.

Results

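The histone variant H2Av was mapped by chromatin immunoprecipitation followed by sequencing (ChIP-seq) in whole Drosophila melanogaster embryos, and 468 broad domains are described here. They were chosen by their deposited width, as the regions of 12000 bp or more on 2L, 2R, 3L, 3R, X and 4 in the authors' list for the whole replicate set, called the combined list. That list has 5905 regions on all sequences and 5176 on these 6, where the other 4708 regions were shorter. A further 22 regions of this width on heterochromatic and unplaced scaffolds were not included. The series has 3 ChIP libraries, made with the antibody H2AV 9751, and 3 input libraries of chromatin sequenced without the antibody. All 6 came from the wild-type strain Oregon-R-modENCODE at 14 to 16 h of embryonic development, kept in population cages and fixed with 1.8% formaldehyde. The labels' protocol states only the upper age limit of 16 h for the collection. Whole embryos hold many tissues, and a domain present in all cells cannot be told apart from a domain present in some. Each ChIP library has a list of regions enriched over an input. ChIPs 1, 2 and 3 were set against inputs 3, 1 and 2 per the labels, so equal numbers pair nothing.

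H2Av takes the place of canonical H2A in a part of the nucleosomes of the fly and does the work of both H2A.Z and H2A.X of other animals. It is known at the starts of active genes and in heterochromatin, where it is needed for silencing, and it is phosphorylated beside DNA breaks. A broad domain here is a long stretch that the combined list gives as 1 enriched region.

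Width in the combined list chose the domains, and that list is named as made from the same replicate set as the 3 single lists. Comparisons of domains with shorter regions are therefore descriptions and have no test. Library depth is unknown, because the lists hold no read numbers. The labels do not say that the 3 replicates came from separate collections, and an SD over replicates may measure technical spread only. By the experiment numbers in the labels, ChIP 1 stands beside its own input and ChIPs 2 and 3 stand apart from theirs. What sets replicate 1 apart in its values and this difference in experiment numbers cannot be told apart. Positions are on FlyBase release 5, from the file headers. Domains are named by position alone, since the gene positions at hand are on another release.

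The domains were few but held much of the bound length. They were 9.04% of the combined regions on the 6 sequences and held 30.6% of their length, 8.35 Mb. Their widths ran from 12005 to 57463 bp, with a median of 15954 bp and quartiles of 13913 and 19674 bp. The width limit falls in a continuous range. The narrowest domains were 2R from 4820680 to 4832684, with 12005 bp, and 3L from 21925556 to 21937564, with 12009 bp. Just under the limit were 2L from 21176958 to 21188940, with 11983 bp, and 2R from 1281060 to 1293030, with 11971 bp.

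The replicate lists hold the same domains in part as broad regions and in part as rows of shorter ones. All 468 domains were overlapped by a region of every replicate, against 62.6% of all combined regions on the 6 sequences and 58.9% of the shorter ones (95% exact Clopper-Pearson interval 57.5 to 60.3). A wide region has more bases at which to meet a replicate region, and nothing is read from this count. Replicates 1, 2 and 3 covered 88.5%, 94.9% and 93.6% of the domain bases (mean 92.3% ± 3.41, SD, n = 3). They covered 68.1%, 80.4% and 76.8% of the bases of shorter regions (mean 75.1% ± 6.31). Bases inside regions of all 3 replicates made up 85.5% of the domains and 62.0% of the shorter regions. Bases inside a region of any replicate made up 98.0% and 88.0%. Replicate 1 had the lowest share in both width groups.

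Coverage per domain ranged widely. The median domain had 87.8% of its bases in all 3 replicates, with quartiles of 79.5% and 94.8%, and the median shorter region had 55.7%. At least 90% of the bases were in all 3 replicates in 206 domains (44.0%), and less than 50% in 11 (2.35%). Among shorter regions these counts were 689 (14.6%) and 2250 (47.8%). The domain with the least was 3L from 21283519 to 21295675, of 12157 bp, with 11.3% of its bases in all 3 replicates. Replicate 1 covered 16.1% of it, in 1 region of 1954 bp, whereas replicates 2 and 3 covered 71.2% and 66.3%, in 3 and 4 regions. It also had the lowest score of all domains, at percentile 33.8 of the combined list. The next lowest were 2L from 22836424 to 22851945 with 28.1%, 2R from 18586876 to 18604849 with 30.7%, 2L from 21577566 to 21592098 with 35.2% and 3R from 12838021 to 12855109 with 37.8%. In each of these 5 domains replicate 1 covered the smallest share, between 16.1% and 57.4%. Their scores lay at percentiles 33.8 to 52.5, in the low end of the domains.

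Replicates often broke a domain into shorter regions. A domain is called split in a replicate where 2 or more regions of that replicate overlap it. Replicate 1 split 56.4% of the domains, replicate 2 split 41.7% and replicate 3 split 42.7% (mean 46.9% ± 8.22, SD, n = 3). Shorter regions were split in 6.48%, 5.88% and 5.88% of cases (mean 6.08% ± 0.343). Width gives more room for a break, and per Mb of combined region length the replicates had 46.8, 31.3 and 32.1 breaks inside domains and 17.1, 15.6 and 15.7 inside shorter regions. A short region cannot hold several replicate regions of the shortest called width, which limits the comparison per Mb as well. Regions that a replicate did not overlap cannot be split by it, yet they stay in these shares and rates. They were 36.8%, 24.9% and 28.0% of the shorter regions in replicates 1, 2 and 3, and 0.0% of the domains. Replicate 1 broke 94 domains into 3 or more regions, replicate 2 broke 50 and replicate 3 broke 55.

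**Figure D1:**
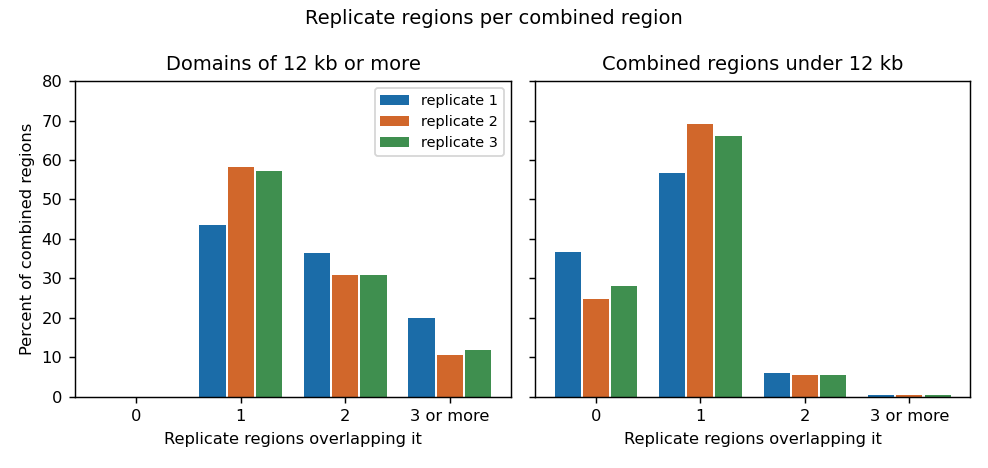
Number of replicate regions overlapping each combined region (x axis) against the percent of combined regions (y axis), with 1 bar per replicate, for 468 domains on the left and 4708 shorter regions on the right. No domain lacks a replicate region, and 41.7 to 56.4% of domains carry 2 or more, against 5.88 to 6.48% of shorter regions.

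The same domains were not always the ones split. In 141 domains (30.1%, 95% exact Clopper-Pearson interval 26.0 to 34.5) every replicate had exactly 1 region, against 45.9% of all combined regions and 47.4% of the shorter ones. Every replicate overlapped only 2773 of the 4708 shorter regions, and 2233 of these had exactly 1 region in each replicate. In 113 domains (24.1%, interval 20.3 to 28.3) every replicate had 2 or more, against 3.52% of all combined regions and 1.47% of the shorter ones. At least 1 replicate split 327 domains, which is 69.9% against a background of 17.4%. Of these 327, 108 were split by 1 replicate, 106 by 2 and 113 by all 3. Where 1 replicate alone split a domain, it was replicate 1 in 63 cases, replicate 2 in 24 and replicate 3 in 21. The intervals cover counting error only, and neighbouring regions are not independent.

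Domains split in more replicates stood lower in score. Scores are the authors' values and were used only as ranks within a list. Domains that no replicate split had a median percentile of 92.9 in the combined list, and the medians were 82.6, 81.1 and 74.5 for those split in 1, 2 and 3 replicates. Widths differed less, with medians of 15641, 15215, 17468 and 17235 bp in the same order. Of the 234 domains above the domain median of the score, the replicates split 39.3%, 29.9% and 28.6%. Of the 234 at or below it, they split 73.5%, 53.4% and 56.8%. The order was the same in each of the 3 replicates. The share of bases in all 3 replicates was 91.2% above that median and 79.4% at or below it.

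A break counts as inside a domain only where the combined list bridged it, which favours short breaks, and no comparison with other gaps is drawn. The median break was 466 bp in replicate 1, 328 bp in replicate 2 and 387.5 bp in replicate 3, over 391, 261 and 268 breaks. Breaks under 500 bp made up 52.9%, 60.9% and 56.3% of them. The longest were 6533, 3871 and 4037 bp.

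Breaks fell at the same places in only a part of the cases. Of the 391 breaks of replicate 1, 31.2% shared a base with a break of replicate 2 and 34.3% with a break of replicate 3. Of the breaks of replicate 2, 47.9% met a break of replicate 1 and 42.5% one of replicate 3. Of those of replicate 3, 51.5% met replicate 1 and 41.8% met replicate 2. Allowing a distance of 500 bp, the shares ran from 39.9% to 63.8%. No share expected from placement alone was computed for any of these. The list with most breaks, replicate 1, had the lowest shares as the source and the highest as the target. Only the 113 domains split in all 3 replicates could hold a stretch in a break of all 3 at once. Of these, 53 (46.9%) did, with 63 stretches in all and a median length of 170.0 bp. The longest was 3242 bp, from 4267944 to 4271185 on 3L, inside a domain of 19385 bp. At these places the combined list joined what every replicate list left apart. How the authors combined the replicates is not given in the sources used here.

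The 10 widest domains show these forms side by side. The widest, 3L from 20405528 to 20462990 (57463 bp), was 7 regions in replicate 1, 8 in replicate 2 and 5 in replicate 3, of which the widest was 12528, 15245 and 21771 bp. Some of its breaks lay near each other in the 3 lists and others did not. The break of replicate 1 at 20459734 to 20459801 met no break of replicates 2 or 3. A break recurred at 20431419 to 20431542 in replicate 1, at 20431654 to 20431728 in replicate 2 and at 20431618 to 20431768 in replicate 3. Those of replicates 2 and 3 shared bases, and that of replicate 1 lay just beside them. Another break near 20453458 was also present in all 3 lists, again without a base common to all. This domain had a score at percentile 61.6, below the domain median of 83.9.

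The second widest, 3R from 21038972 to 21086164 (47193 bp), was 1 region of 46912 bp in replicate 2 and 2 regions each in replicates 1 and 3. On X from 19531631 to 19570018 (38388 bp) replicates 1, 2 and 3 had 5, 4 and 2 regions. On X from 2051279 to 2088319 (37041 bp) they had 3, 2 and 3 regions, and replicate 1 covered 82.1% of the bases. X from 15342471 to 15379280 (36810 bp) was 1 region of 36576 and 37388 bp in replicates 1 and 3 and was broken once in replicate 2. Replicate 2 thus split a domain that replicate 1 left whole, against the usual order.

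The other 5 of the widest were 3L from 23673595 to 23710159, X from 11462825 to 11498888, 2L from 4947998 to 4983502, 2R from 66890 to 101724 and chromosome 4 from 163868 to 198058, of 34191 to 36565 bp. Replicate 1 broke all 5, into 4, 2, 2, 4 and 3 regions. Replicate 2 held those on 3L, 2R and chromosome 4 as 1 region of 36406, 34746 and 34063 bp. Each of the 10 was split by at least 1 replicate. Bases in all 3 replicates made up 79.1 to 95.9% of the 10. After the widest domain, the most broken was 2R from 20473318 to 20497136 (23819 bp), with 7, 3 and 5 regions in replicates 1, 2 and 3. A further 8 domains had at most 5 regions in a replicate, among them 2R from 20786803 to 20809046 with 5, 5 and 4.

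**Figure D2:**
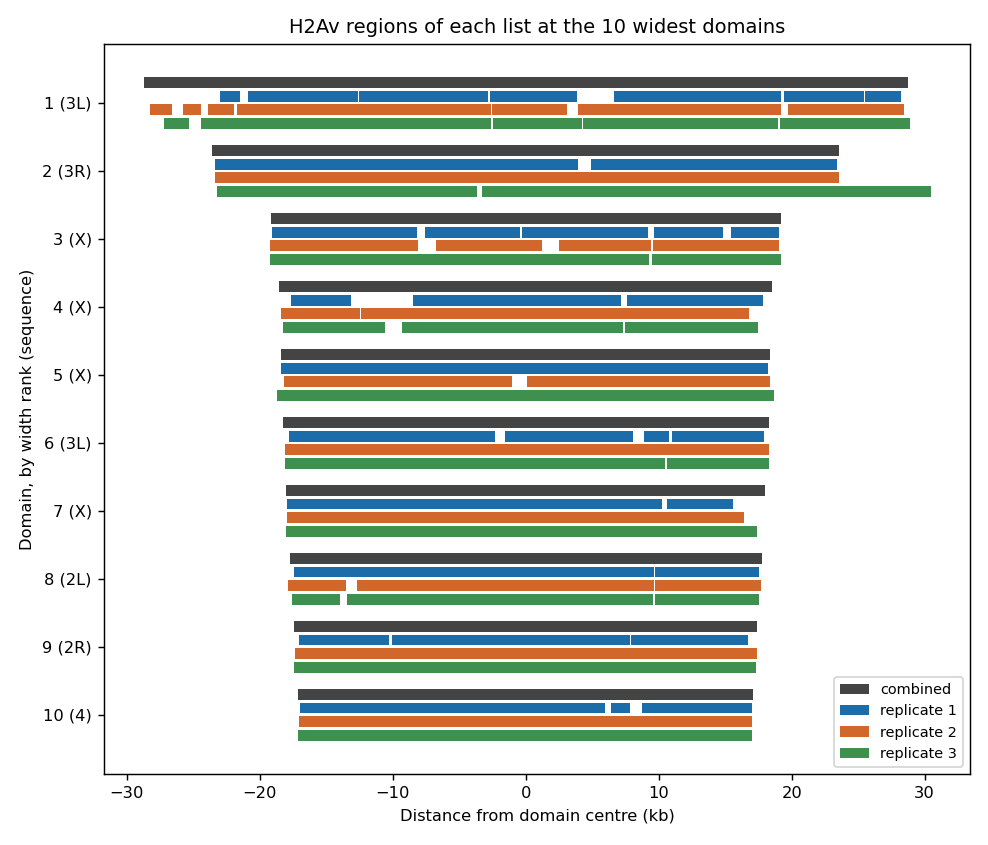
Regions of the combined list and of replicates 1, 2 and 3 (coloured bars) at the 10 widest domains, by distance from the domain centre in kb (x axis), with domains in order of width from top to bottom. Replicate 1 breaks 9 of the 10, and at the fifth domain replicate 2 alone has a break.

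Other domains were whole in every list. In 118 (25.2%) every replicate had a single region that was itself 12 kb or wider. The widest of these was X from 15652642 to 15686319 (33678 bp), held as 33129, 33004 and 32365 bp by replicates 1, 2 and 3. It was followed by 3L from 16578759 to 16610549 (31791 bp), held as 31503, 31545 and 31459 bp. In this domain 98.7% of the bases lay in all 3 replicates, and its score was at percentile 98.9. The next were X from 16283667 to 16310942 with 27276 bp, 2R from 12157284 to 12183411 with 26128 bp and 2R from 1133845 to 1158916 with 25072 bp. They had 98.9%, 98.3% and 85.1% of their bases in all 3 replicates. At the last of these replicate 1 was shorter, with 21333 bp against 23725 and 23910 bp in replicates 2 and 3.

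Where a replicate met a domain, its outer ends lay close to those of the combined list. The median distance between the ends was 274.5 bp in replicate 1, 99.0 bp in replicate 2 and 177.0 bp in replicate 3. At shorter regions that all 3 replicates overlapped it was 226, 106 and 159 bp. The spread between replicates exceeded the difference between domains and shorter regions.

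The replicate lists have their own regions of 12 kb or more. They numbered 239, 331 and 333 in replicates 1, 2 and 3 (mean 301.0 ± 53.7, SD, n = 3) and covered 3.91, 5.64 and 5.70 Mb. Replicate 1 had the fewest, below the other two by more than they differed from each other. A region of 12 kb or more was present in all 3 replicates at 215 domains (45.9%), in 2 at 84, in 1 at 75 and in none at 94 (20.1%). The last 94 were domains by the combined list alone. Their median width was 13686 bp and the widest had 23945 bp. Their median score percentile was 70.8, and 66 of them were under 15 kb wide.

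Replicate 3 alone had regions of this width outside the domains. All such regions of replicates 1 and 2 overlapped a domain, and 10 of replicate 3 did not. The widest of these 10 was X from 681872 to 701884 (20013 bp), where the combined list had 2 regions, the wider of 10118 bp, with 1483 bp between them. Replicates 1 and 2 had 2 and 3 regions there, of at most 7720 and 8273 bp. The next 4 were X from 10769838 to 10786181 of 16344 bp, 2L from 7010459 to 7025435 of 14977 bp, 2L from 19040656 to 19055553 of 14898 bp and 2R from 5944284 to 5959144 of 14861 bp. In these 4 the combined list again had 2 regions, with 342, 180, 11 and 104 bp between them. Of all bases in regions of replicate 3 on the 6 sequences, 2.40% lay outside the combined list, against 0.341% for replicate 1 and 0.324% for replicate 2.

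Coverage and splitting were higher in wider classes of combined regions. The replicates covered 83.5% ± 5.47 of the bases of regions of 4 to 8 kb (SD, n = 3) and 88.8% ± 4.24 at 8 to 12 kb. They covered 90.7% ± 3.65 at 12 to 15 kb, 92.5% ± 3.81 at 15 to 20 kb and 93.6% ± 2.83 at 20 kb or more. For coverage, the steps between neighbouring classes from 8 kb upwards were smaller than the SD, which measures the offset between replicates. Within each replicate coverage rose at every one of these steps, by very little at the last step in replicate 2. At 8 to 12 kb replicates 1, 2 and 3 covered 83.9%, 91.5% and 91.0%, and at 20 kb or more 90.4%, 95.7% and 94.8%. The share of regions that a replicate split was 9.60% ± 0.736, 27.7% ± 5.92, 42.1% ± 6.64, 44.6% ± 7.61 and 58.6% ± 11.9 in the same order. The step from 8 to 12 kb to 12 to 15 kb was larger than either SD and was present in every replicate. Replicates 1, 2 and 3 split 49.7%, 38.0% and 38.5% at 12 to 15 kb and 33.8%, 27.1% and 22.1% at 8 to 12 kb. This was not particular to the limit of 12 kb. The step from 4 to 8 kb to 8 to 12 kb and the last step, to 20 kb or more, also exceeded either SD in every replicate's direction. At 4 to 8 kb the replicates split 8.92%, 9.50% and 10.4%, and at 15 to 20 kb 53.3%, 39.1% and 41.4%. In the widest class, of 112 domains, replicate 1 split 72.3% and replicates 2 and 3 split 51.8% each.

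**Figure D3:**
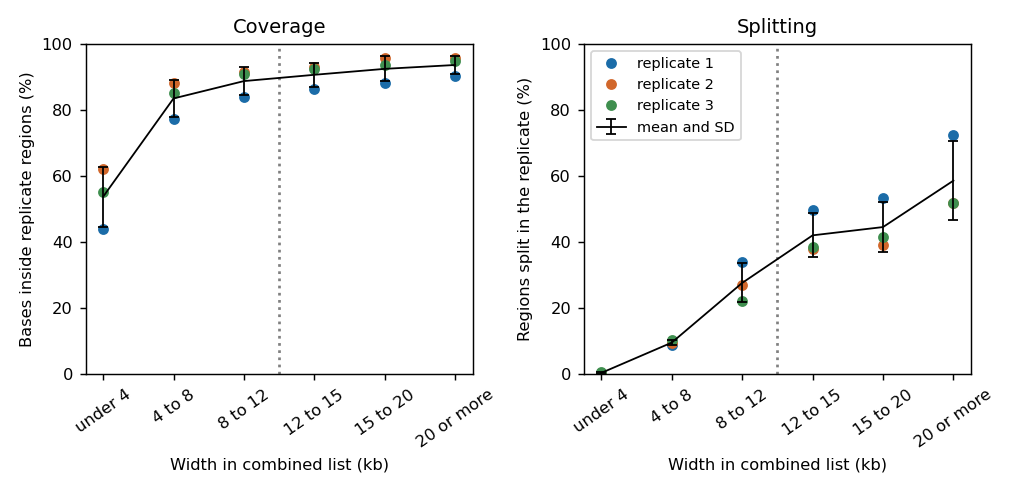
Percent of bases inside replicate regions (left) and percent of regions split in the replicate (right) by width class in the combined list (x axis, kb), with a point per replicate, and the mean and SD over 3 replicates in black. The dotted line marks 12 kb. Mean coverage is 88.8% at 8 to 12 kb and 93.6% at 20 kb or more. Splitting reaches a mean of 58.6% in the widest class.

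Domains stood high in score rank, but among themselves width and score were nearly unrelated. Their median percentile in the combined list was 83.9, against 45.5 for shorter regions. Of the domains, 161 (34.4%) ranked above percentile 90 and 8 (1.71%) below percentile 50, against 7.58% and 54.8% of the shorter regions. In the replicate lists, the widest region within a domain had a median percentile of 80.6, 81.1 and 80.9 in replicates 1, 2 and 3, and within shorter regions 49.4, 47.6 and 49.2. Across the 468 domains the Spearman correlation of width with score was 0.08, and across the 4708 shorter regions it was 0.76. Domains and shorter regions span unlike ranges of width and rank, so these values are not on equal terms. Score was closely related to the share of a domain's bases in all 3 replicates, with a Spearman correlation of 0.63 across domains and 0.85 across shorter regions. Regions are not independent, and the scores and shares come from the same libraries. Median percentiles were 78.3 at 8 to 12 kb, 82.1 at 12 to 15 kb, 84.8 at 15 to 20 kb and 85.8 at 20 kb or more.

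The domains with the highest scores were of modest width. The first 5 were 2R from 3708781 to 3721372 of 12592 bp, 3R from 18563455 to 18578113 of 14659 bp, X from 8970873 to 8986012 of 15140 bp, X from 2606124 to 2623546 of 17423 bp and 3R from 23777106 to 23791615 of 14510 bp. Their percentiles ran from 99.6 to 99.8. Those on the autosomal arms were 1 region in every replicate, between 12257 and 14486 bp wide. The first on X was broken in replicate 2 alone, and the second on X in replicates 1 and 2. The domain on 3R from 23777106 was followed by 350 kb without a combined region, a distance of 349618 bp on its right side, and had its left neighbour at 647 bp.

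**Figure D4:**
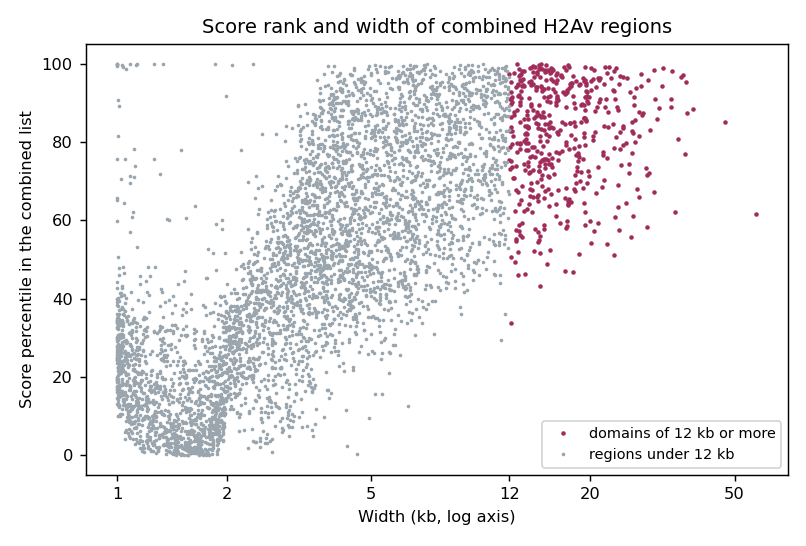
Score percentile in the combined list (y axis) against width in kb (x axis, log scale) for 468 domains and 4708 shorter combined regions, with 1 point per region. Below 12 kb the percentile climbs with width; among domains it spreads from 33.8 to 99.8 with a Spearman correlation of 0.08 to width.

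Domains were found on all 6 sequences. X had 87, chromosome 4 had 12, and 2L, 2R, 3L and 3R had 85, 111, 72 and 101. This was 9.02% of the combined regions of X (95% exact Clopper-Pearson interval 7.29 to 11.01), 11.1% of those of chromosome 4 (5.87 to 18.6) and 8.99% of those of the 4 autosomal arms together (8.13 to 9.91). Among the autosomal arms 2R had 10.7% (8.87 to 12.7), 2L 9.75% (7.86 to 11.9), 3R 8.91% (7.32 to 10.7) and 3L 6.79% (5.35 to 8.48). The intervals of 2R and 3L do not overlap, while those of 2L and 3R overlap both. They take regions as independent, which neighbouring regions are not, and no difference between arms was tested. Domains took up 7.18% of X, 18.2% of chromosome 4 and 6.72% of the autosomal arms. Per Mb there were 3.88 on X, 8.88 on chromosome 4 and 3.82 on the autosomal arms, where 2R had 5.25 and 3L had 2.93.

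Each replicate gives its own widths, and position was not used to choose the domains, so the share of broad regions on X was compared with the autosomal arms over replicates. On X 5.05%, 6.75% and 7.86% of the regions of replicates 1, 2 and 3 were 12 kb or wider, against 5.88%, 7.40% and 7.62% on the autosomal arms. X was lower in replicates 1 and 2 and higher in replicate 3. The log2 ratio of X to the autosomal arms was -0.10 ± 0.13 (SD, n = 3), smaller than its spread (exact two-sided sign-flip permutation test, p = 0.5, where the smallest possible value is 0.25). With 3 replicates this test cannot reach 0.05, and it does not show that X and the autosomal arms are alike. In the combined list the log2 ratio was 0.01.

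In every replicate 3L had the smallest share of broad regions, with 4.33%, 5.08% and 5.61% in replicates 1, 2 and 3, against 8.03%, 8.67% and 8.60% on 2L. Chromosome 4 had 8.14%, 8.00% and 8.08%, from 7, 8 and 8 regions. On 2R the share was 5.90% in replicate 1 and 9.02% and 8.92% in replicates 2 and 3, a wider spread between replicates than on 2L or chromosome 4. Replicate 1 was the lowest on X, 2L, 2R, 3L and 3R, and on chromosome 4 it was the highest by a fraction of a percent.

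**Figure D5:**
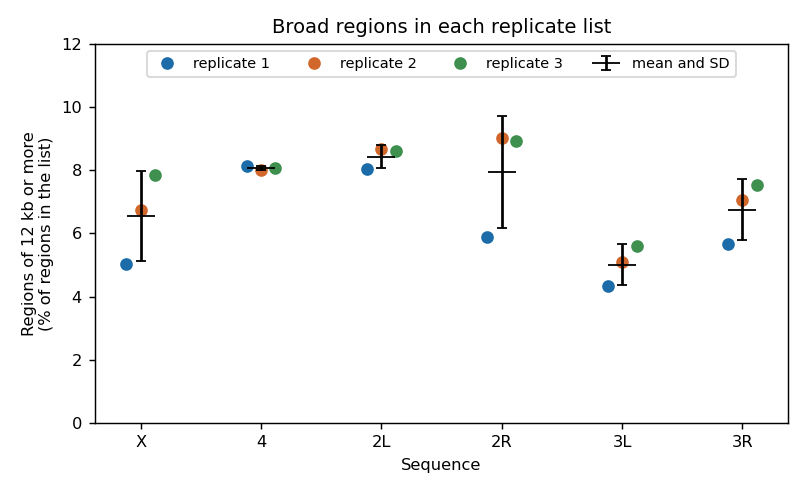
Percent of the regions of each replicate list that are 12 kb or wider (y axis) on X, 4, 2L, 2R, 3L and 3R (x axis), with a point per replicate and the mean and SD over 3 replicates in black. The points of 3L lie lowest, at 4.33 to 5.61%, and replicate 1 lies below replicates 2 and 3 on all large arms.

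Domains on chromosome 4, the small and largely heterochromatic chromosome, were wide and of lower score. Their median width was 19865 bp, against 15588 bp on X and 15926 bp on the autosomal arms. Their median score percentile was 67.1, against 86.7 on X and 84.0 on the autosomal arms. Bases in all 3 replicates made up 84.8% of them, close to the 85.3% on the autosomal arms. Replicate 1 split 75.0% of the 12, and replicates 2 and 3 split 33.3% each. On X the replicates split 64.4%, 51.7% and 47.1% of the domains, against 53.9%, 39.6% and 42.0% on the autosomal arms. X was higher in each of the 3, by 10.4, 12.2 and 5.12 percentage points (mean 9.24 ± 3.67, SD of the differences within a replicate, n = 3). This difference was seen in the data and was not tested.

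As a share of combined regions, domains were little more frequent in the arm ends next to the centromere than in the rest. In the 2 Mb next to the centromere, 64 of 657 combined regions of the 5 large arms were domains (9.74%), against 392 of 4411 (8.89%) in the rest of the arms. By arm the shares in this stretch and in the rest were 14.2% and 10.1% on 2R, 11.1% and 8.68% on 3R, 9.46% and 9.81% on 2L, 6.42% and 6.87% on 3L and 6.78% and 9.17% on X. The direction differed between arms. These are shares of called regions, and domains per Mb were not compared between the stretches.

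Distances between neighbouring domains ran from 22 bp to about 2 Mb. Neighbouring domains were a median 107 kb apart (106881 bp, 462 pairs), with quartiles of 27363 and 330597 bp. The longest distance was 2074 kb, on 3L from 13031780 to 15106109. Of 244 windows of 500 kb, 55 had no domain and 16 had 5 or more. Those 16 are 6.56% of the windows and held 102 domains (21.8%) and 554 of all combined regions (10.7%). They were picked for their number of domains, so an excess of domains in them is given by the choice. The window with most was 2L from 10.0 to 10.5 Mb with 9 domains and 149.6 kb of domain length, where replicates 1, 2 and 3 had 7, 8 and 7 regions of 12 kb or more. It was followed by 2R from 19.5 to 20.0 Mb with 8 domains. The third was 2L from 22.5 to 23.0 Mb, beside the centromere, with 7 domains, the first by domain length (138.7 kb) of 5 windows with 7. There each replicate had 3 regions of 12 kb or more, against 6, 7 and 7 in the window on 2R.

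Domains stood beside another domain little more often than other regions did. The next combined region on the left or right was a domain for 98 domains (20.9%, 95% exact Clopper-Pearson interval 17.3 to 24.9), against 17.1% of all combined regions and 16.7% of the shorter ones (15.7 to 17.8). Domains beside each other are counted in pairs, and the interval takes them as independent. Its lower end lies near the background, and no preference is read from it. In 52 pairs no region lay between the domains, and 5 runs held 3 or more domains in sequence, the longest 4.

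The closest pairs were barely apart. On X a domain ending at 15851576 and another starting at 15851599 had 22 bp between them, as had a pair on 2R ending at 18771641 and starting at 18771664. The third pair, on chromosome 4, ended at 1166564 and started at 1166621, with 56 bp between. No replicate joined the pair on X, replicate 3 joined the pair on 2R in 1 region, and replicate 2 joined the pair on chromosome 4 in 1 region of 46664 bp. Of the 52 pairs, replicates 1, 2 and 3 joined 0, 1 and 4. With all regions under 200 bp apart joined in each list, the combined list had 516 domains in place of 468.

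A larger share of the bases around domains lay inside H2Av regions than around shorter regions. The nearest other combined region was a median 1126.5 bp from a domain and 1316 bp from a shorter region. It was under 1 kb away from 48.1% of domains and 42.9% of shorter regions, and over 20 kb away from 2.56% and 4.99%. Of the bases in the 20 kb on either side, replicates 1, 2 and 3 had 31.4%, 36.0% and 35.7% inside regions beside domains, and 25.7%, 29.9% and 29.5% beside shorter regions (means 34.4% ± 2.60 and 28.4% ± 2.29, SD, n = 3). The share was higher beside domains in each of the 3 replicates, and the combined list had 42.1% and 36.2%.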

How the data were processed

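Per the submitters' processing notes, Bowtie 0.12.7 aligned the reads. The authors deposited 1 list of enriched regions for each of 3 ChIP libraries and 1 for the replicate set, on FlyBase release 5, per the file headers. Each region has first and last bases and a score whose unit the deposited lists do not name, so the score was used only as a rank within its list. The region caller, its thresholds, its treatment of duplicate reads and short breaks, and the way the combined list was made are not given in these sources. Such settings could change every width. With depth unknown, no score has a known precision.

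Domains were combined regions of 12000 bp or more on the 6 sequences. Regions running past a sequence end were ended there. Overlap required 1 shared base. Percentiles are the share of regions on these sequences scoring at or below. SDs are over 3 replicates, intervals of shares are 95% exact Clopper-Pearson, and the X ratio has an exact sign-flip test. For the median score percentile and the median distance to the nearest region, 95% intervals from binomial ranks were used only to judge alternatives. Coverage and split counts were tested on simulated data, with 0 mismatches in 3000 pairs of a region and a replicate. The tools were matplotlib 3.10.9, scipy 1.17.1, pandas 2.3.3, numpy 2.4.6 and Python 3.11.15.

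Named were the 10 widest domains, the 5 with the highest score, the 5 least covered in all 3 replicates, the 5 widest held whole by every replicate, the 3 most split, the 3 closest pairs, the 3 richest windows, the widths next to the limit and replicate regions outside domains. Domains and rules were chosen with earlier results of these data known. Alternatives were other widths, sequences, joining of regions, higher scores, a minimum overlap and leaving out a replicate.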

Additional observations from a re-analysis of the deposited data

How the results depend on the processing

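Of 67 alternative values, 60 counted as unmoved and 7 moved. A count was unmoved within 1.5 times the value as reported, the X ratio where its sign was kept, and any other value within its SD or 95% interval. The share of domain bases in all 3 replicates has no SD of its own and was judged by the SD of coverage per replicate. Many alternatives share most of their regions. The X ratio could not change when only the 5 large arms were kept, since it does not use chromosome 4, and it counts among the unmoved. With a limit of 15000 bp there were 281 domains and 160.7 broad regions per replicate. With 10000 bp there were 684 domains and 458.3 broad regions per replicate, and 29.7% of domains stood next to another. At 10000 bp more regions count as domains, so more of all combined regions stand next to one as well. That background share was not computed for the alternatives, and no rise in clustering is read from the 29.7%. With the highest-scoring 50% of each list 34.6% of domains stood next to another, and the median score percentile was 68.3; both follow in part from the smaller list. Leaving out a replicate gave 86.6 to 91.2% of domain bases in all remaining replicates, the highest without replicate 1; a requirement of 2 lists in place of 3 can only raise it. It also gave 285.0 to 332.0 broad regions, 42.2 to 49.6% of domains split, 91.0 to 94.3% of bases covered and a log2 ratio of X of -0.18 to -0.04. That ratio was -0.23 at 15000 bp, below 0 in every replicate (exact sign-flip permutation p = 0.25, the smallest possible) and -0.07 at 10000 bp (p = 0.5). No paired analysis was possible because no region list of an input was analysed here, so a ChIP list cannot be set against its own input; the X ratio is taken within each replicate list. Depth is unknown, so what it limits could not be measured.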
